A study of Mus musculus with 12 samples.

Results

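The MHC class II presentation genes are the 7 genes H2-Aa, H2-Ab1, H2-Eb1, Cd74, Ciita, H2-DMa and H2-DMb1, out of 43432 genes in the deposited count table, and they were taken by symbol through the GENCODE M21 annotation of the mouse genome build GRCm38. Bulk RNA sequencing covered 12 libraries of live EpCAM+ epithelial cells sorted from Flare25 mice, in which a red fluorescent protein reports transcription of Il25. The SI-pos and SI-neg groups are the IL-25+ and IL-25- cells of the proximal small intestine, and the GB-pos and GB-neg groups are those of the gallbladder, with 3 libraries in each group. All 12 libraries carry the reporter and a protocol label of homeostasis, while the 6 gallbladder libraries alone also list HDM AF647, given on the day before collection. Tissue and that label cannot be told apart. Sex, age and whether the libraries of a group came from separate mice are not given in the sources used here, so p-values measure only the spread between these libraries, which may be technical. The IL-25- gate holds all EpCAM+ cells without the reporter and is a mixture of epithelial types.

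MHC class II molecules are pairs of an alpha and a beta chain that display peptides from endosomes to CD4+ T cells. In the endoplasmic reticulum the invariant chain, encoded by Cd74, occupies the groove and directs the complex to endosomes, where proteases trim it to a short peptide that the chaperone H2-DM exchanges for others. Ciita encodes the transactivator that binds no DNA itself and is recruited by the RFX, CREB and NF-Y factors sitting on the X and Y boxes of class II promoters. Professional antigen-presenting cells express the pathway constitutively, and intestinal epithelium, mainly enterocytes of the villus, expresses it under interferon gamma. Tuft cells, the main source of IL-25 in gut epithelium, are rare chemosensory cells of the epithelium that drive type 2 responses.

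Of the 7 genes, 5 lie within 197.1 kb of chromosome 17 (34119541 to 34316674 in GRCm38). In order along the chromosome these are H2-DMa (34119541 to 34139101, plus strand), H2-DMb1 (34153072 to 34160230, plus), H2-Ab1 (34257689 to 34269419, plus), H2-Aa (34282744 to 34287823, minus) and H2-Eb1 (34305867 to 34316674, plus). Ciita lies on chromosome 16 (10480059 to 10528418, plus), and Cd74 lies outside both regions. Because the members moved together across the groups, the promoters of members and of class II genes that were silent here are shown side by side, from the 250 bases before each start in the RefSeq promoter table (GRCm38.p6), which held 4 of the 7 members. Capitals mark the core of the X box, searched as GNAAC, and the Y box, the inverted CCAAT that NF-Y binds, searched as GATTGG. All are written on the strand of the gene.
H2-Aa (chr17:34287855-34287916, minus): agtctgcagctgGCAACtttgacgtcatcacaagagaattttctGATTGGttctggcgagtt
H2-Eb1 (chr17:34305764-34305824, plus): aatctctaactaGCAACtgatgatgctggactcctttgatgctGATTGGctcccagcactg
H2-Ob (chr17:34238806-34238864, plus): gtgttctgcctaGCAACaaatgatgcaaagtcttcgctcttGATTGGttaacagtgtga
H2-Eb2 (chr17:34325531-34325591, plus): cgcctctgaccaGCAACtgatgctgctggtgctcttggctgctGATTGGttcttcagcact
The X core began 81 bases before the start and the Y box 49 bases before it in H2-Aa (positions -81 and -49), and the positions were -91 and -60 in H2-Eb1 and -94 and -62 in H2-DMb1. The pair of motifs, which do not overlap, stood 28 to 36 bases apart on 1 strand in 160 of 32851 promoter windows (0.487%, either strand). That spacing was chosen after these promoters had been read. The Y box alone was present in 14.6% of windows. The pair was also found in H2-Oa. On the strand of the gene it was not found in either window of H2-DMa, a member with reads, nor in that of H2-DMb2. H2-DMb2 was read at most 3 times in a library. For single genes the other strand is not given here, whereas the share of all windows counts either strand. On the gene's strand, windows with and without the pair thus occur among members and among class II genes with hardly any reads. Among the latter are H2-Ob and H2-Eb2.

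Total counts ran from 23703449 to 64736650 per library, and levels are given as CPM, read counts scaled by the library total. Where 3 values are given for a group, they are those of its replicates 1, 2 and 3 in that order. Of the 43432 genes, 16636 passed the filter on low counts, among them 7 of the 7 members. Differences are log2 fold changes ± SE from edgeR's quasi-likelihood test with Benjamini-Hochberg adjustment over those 16636 genes, called at an adjusted p below 0.05, with n = 3 libraries per group. The sort matched the labels: 7 of 7 tuft cell markers were called higher in IL-25+ cells of both tissues. Beside them, 14.5% of all tested genes were called higher in the small intestine and 12.4% in the gallbladder. Il25 is among the 7, and the gate selects on its reporter, so its direction is no separate check. The 7 markers summed to 10444 to 19031 CPM in IL-25+ and 18.6 to 146 CPM in IL-25- libraries. Epithelial markers summed to 2951 CPM or more in every library. GB-neg 1 stood apart from the other gallbladder libraries in that 8 enterocyte markers had a median of 5.87% of their SI-neg mean there and at most 0.138% in the other 5. Mitochondrial transcripts took 26.6 to 34.9% of counts in SI-neg, 12.1 to 17.2% in SI-pos, 11.2 to 25.0% in GB-neg and 7.13 to 8.83% in GB-pos, and their part in the results was not tested.

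All 7 genes followed 1 order of mean levels, from SI-neg through SI-pos and GB-neg down to GB-pos. The SI-neg libraries lay above every SI-pos library for 7 of 7 genes. The SI-pos libraries lay above every GB-neg library for 6 of 7, the exception being Ciita, at 0.596 CPM in the lowest SI-pos and 2.24 CPM in the highest GB-neg library. The lowest neighbours separated least, since GB-neg lay above GB-pos for 2 of 7 genes, H2-Aa and H2-DMb1. In bulk samples, fewer cells that express a gene and less RNA per cell cannot be told apart.

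**Figure D1:**
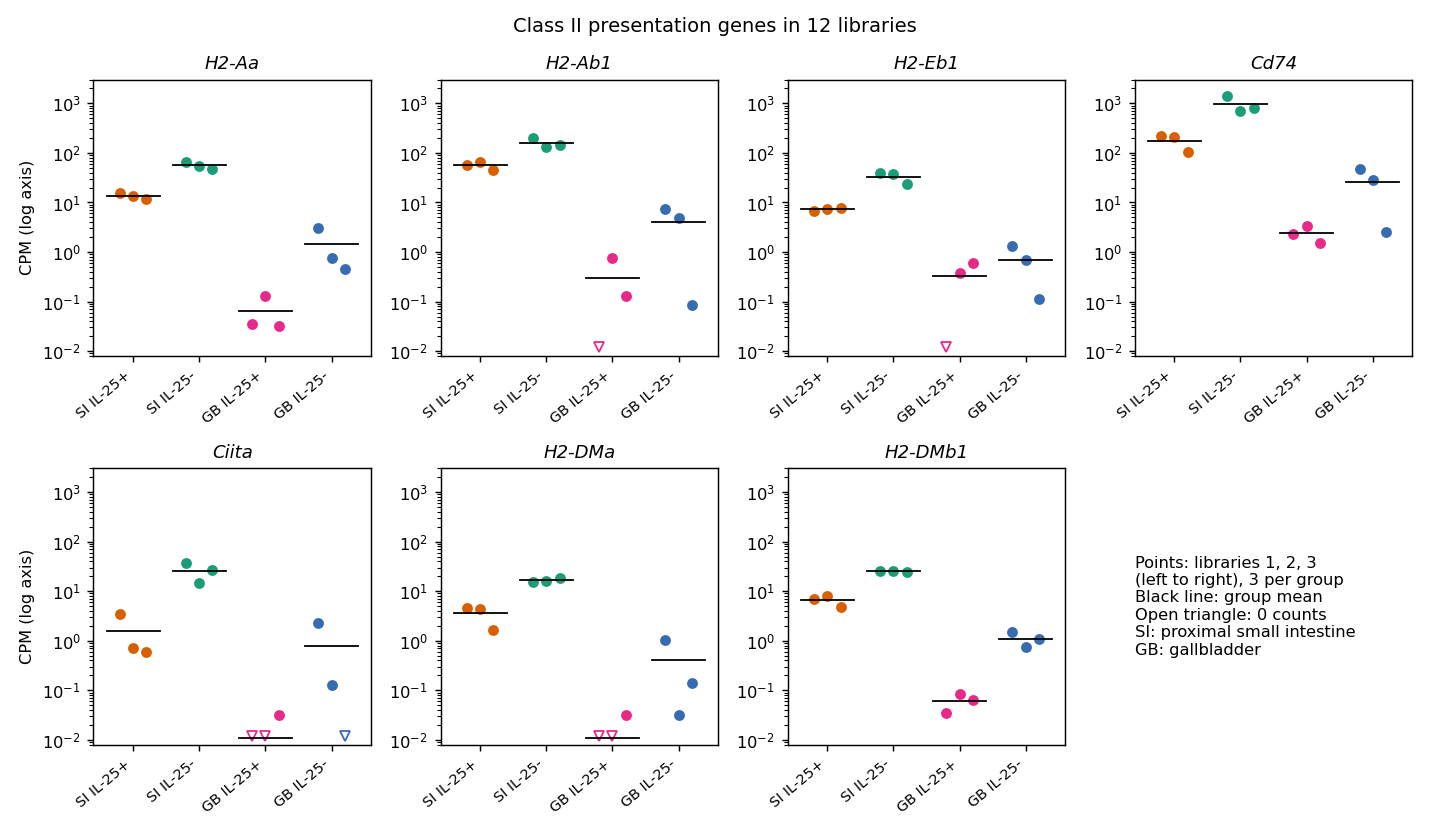
CPM on a log axis of the 7 class II presentation genes in the 12 libraries, in the order of replicates 1 to 3 from left to right within each of the 4 groups; black lines are group means of 3 libraries and open triangles mark 0 counts. The SI-neg libraries are above the SI-pos libraries in every panel, and GB-pos and GB-neg overlap for all but H2-Aa and H2-DMb1.

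Levels of different genes can be compared only per length. The first scale was reads per kilobase of the longest protein-coding mRNA that the annotation tags as principal, scaled to the same total in each library. On it Cd74 was the most abundant in SI-neg at 1567 ± 668 (SD, n = 3), followed by H2-Ab1 at 295 ± 79.1 and H2-Aa at 112 ± 21.9. On the same scale the levels were 44.4 ± 11.4 for H2-Eb1, 40.7 ± 2.11 for H2-DMb1, 22.6 ± 2.51 for H2-DMa and 9.85 ± 4.52 for Ciita. The invariant chain was thus several times more abundant than any chain it binds, and the transactivator was the scarcest. With all annotated exons as the length, H2-Aa came out at 34.1 ± 7.35, beside 38.9 ± 10.2 for H2-Eb1 and 34.8 ± 2.63 for H2-DMb1, so the place of H2-Aa in that order rests on the choice of transcript.

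In the small intestine, IL-25+ cells carried less class II message than IL-25- cells. The difference was called for 4 of the 7 genes, H2-Aa, Cd74, Ciita and H2-DMb1, against 12.8% of all tested genes called lower and 27.2% called in either direction, and none of the 7 was called higher. The median log2 fold change was -2.05 over the 7 genes and -0.0725 over all tested genes. The libraries of the groups did not overlap for 7 of 7 genes, where 25.5% of tested genes were lower without overlap.

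Among the classical chains, H2-Aa, the alpha chain of I-A, was read 456, 394 and 330 times in SI-pos and 2182, 2048 and 1764 times in SI-neg. Its level of 13.4 ± 1.91 CPM (SD, n = 3) in SI-pos lay below the 56.3 ± 9.94 CPM of SI-neg by a log2 fold change of -1.94 ± 0.54 (adjusted p = 0.0176, edgeR). H2-Ab1, the I-A beta chain, was read 1674, 1971 and 1320 times in SI-pos and 6591, 4830 and 5424 times in SI-neg. That is 56.3 ± 10.1 against 159 ± 37.2 CPM, every SI-pos library being below every SI-neg library, but the difference of -1.34 ± 0.98 did not pass the test (adjusted p = 0.348, edgeR). H2-Eb1, the I-E beta chain, was read 197, 222 and 225 times in SI-pos and 1265, 1374 and 874 times in SI-neg. Its levels of 7.33 ± 0.632 and 33.0 ± 8.58 CPM gave -2.05 ± 0.81, which also missed the threshold (adjusted p = 0.0790, edgeR).

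Cd74, on chromosome 18, was read 6436, 6149 and 2952 times in SI-pos and 46444, 25910 and 30477 times in SI-neg. With 176 ± 62.9 CPM in SI-pos and 976 ± 385 CPM in SI-neg, it was lower by a log2 fold change of -2.31 ± 0.75 (adjusted p = 0.0447, edgeR). The spread is wide in both groups, with SI-pos 3 lowest and SI-neg 1 highest. The H2-DM chaperone split in its calls. H2-DMb1, its beta chain, had 204, 234 and 137 reads in SI-pos and 857, 958 and 913 in SI-neg, which is 6.52 ± 1.57 against 25.5 ± 1.11 CPM and a log2 fold change of -1.83 ± 0.44 (adjusted p = 0.00808, edgeR). H2-DMa, its alpha chain, had 137, 132 and 48 reads in SI-pos and 499, 599 and 701 in SI-neg. The estimate for H2-DMa was as large, at -2.08, but its SE of 0.90 left it at an adjusted p of 0.103 (edgeR).

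Ciita had the lowest ratio of IL-25+ to IL-25- level among the 7 genes. It was read 103, 21 and 17 times in SI-pos and 1210, 536 and 1008 times in SI-neg, so SI-pos 1 alone held 103 of the 141 reads of its group. Mean levels were 1.59 ± 1.63 and 26.1 ± 11.2 CPM, and the log2 fold change was -3.87 ± 1.27 (adjusted p = 0.0392, edgeR).

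The call of H2-DMb1 held in 15 of 15 alternatives. Those of the other 3 genes were lost in smaller fits in which the log2 fold change moved little. With no filter on low counts, in all 12 libraries, the calls of Cd74 and Ciita were also lost (adjusted p = 0.114 and 0.0839, edgeR). Cd74 missed the threshold without any 1 of the 6 small intestine libraries (adjusted p = 0.0729 to 0.153, edgeR), at -2.47 to -2.01. Ciita did so without any of them but SI-pos 1 (0.0566 to 0.133), at -4.09 to -3.48. H2-Aa did so without SI-pos 2, SI-pos 3, SI-neg 1 or SI-neg 2 (0.0513 to 0.0705), at -1.95 to -1.83. Conversely, limma-voom with quality weights and a fit of the small intestine libraries alone each called 7 of 7, and DESeq2 called 6. The log2 fold change of each of the 7 genes was negative in all of these fits.

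Within a library, the ratio of 2 genes' counts does not depend on library size. Cd74 was read 7.05, 5.36 and 5.62 times as often as H2-Ab1 in SI-neg and 3.84, 3.12 and 2.24 times as often in SI-pos. The ratio of Ciita to H2-Ab1 was 0.184, 0.111 and 0.186 in SI-neg and 0.0615, 0.0107 and 0.0129 in SI-pos. Neither ratio overlapped between the gates. The ratio of H2-Aa to H2-Ab1, the partners of I-A, was 0.331, 0.424 and 0.325 in SI-neg and 0.272, 0.200 and 0.250 in SI-pos, also without overlap. H2-Eb1 to H2-Ab1 did overlap, since SI-pos 3 at 0.170 exceeded SI-neg 3 at 0.161. H2-Ab1 had the smallest gate estimate of the 7 genes and was taken as the denominator after its values were seen, so lower ratios in SI-pos follow from that choice. The ratios are a description, and the difference between genes was not tested.

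**Figure D2:**
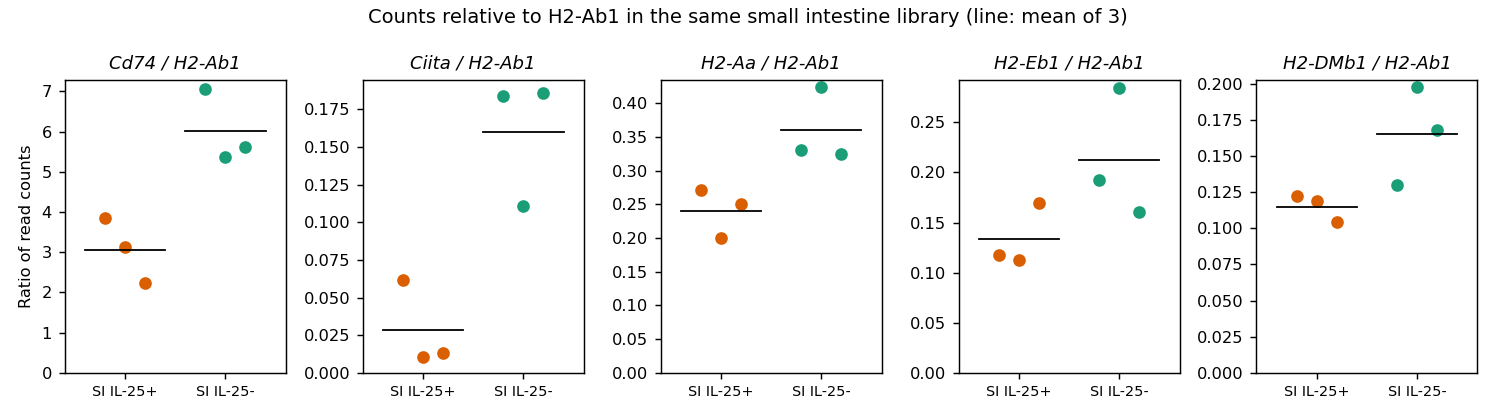
Read counts of 5 class II genes divided by the H2-Ab1 count of the same library, for the 3 IL-25+ and 3 IL-25- small intestine libraries, on linear axes that start at 0; points are libraries and lines are means of 3. The IL-25+ libraries are below the IL-25- libraries for Cd74, Ciita, H2-Aa and H2-DMb1, and the gates overlap for H2-Eb1.

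The members' remaining level in SI-pos was set beside that of 8 enterocyte markers (Alpi, Sis, Apoa1, Apoa4, Fabp2, Lct, Anpep and Rbp2), because IL-25+ libraries held reads of them. The markers had a median of 33.3, 29.3 and 26.0% of their SI-neg mean in SI-pos, and the 7 class II genes had a median of 27.0, 23.5 and 18.9%. H2-Ab1 ran highest among the members, at 35.6, 41.8 and 29.1%. Ciita was the lowest of the 7 in each SI-pos library, at 13.3, 2.71 and 2.29%, below the lowest enterocyte marker there (20.2, 16.4 and 16.2%). Of these 8 markers edgeR called 0 between the gates in the small intestine (0 at an unadjusted p below 0.05, 0 called by DESeq2 and 8 by limma-voom), and 8 of 8 were lower in SI-pos without overlap. Class II genes and enterocyte markers moved together here, and the part of the one in the other was not tested.

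**Figure D3:**
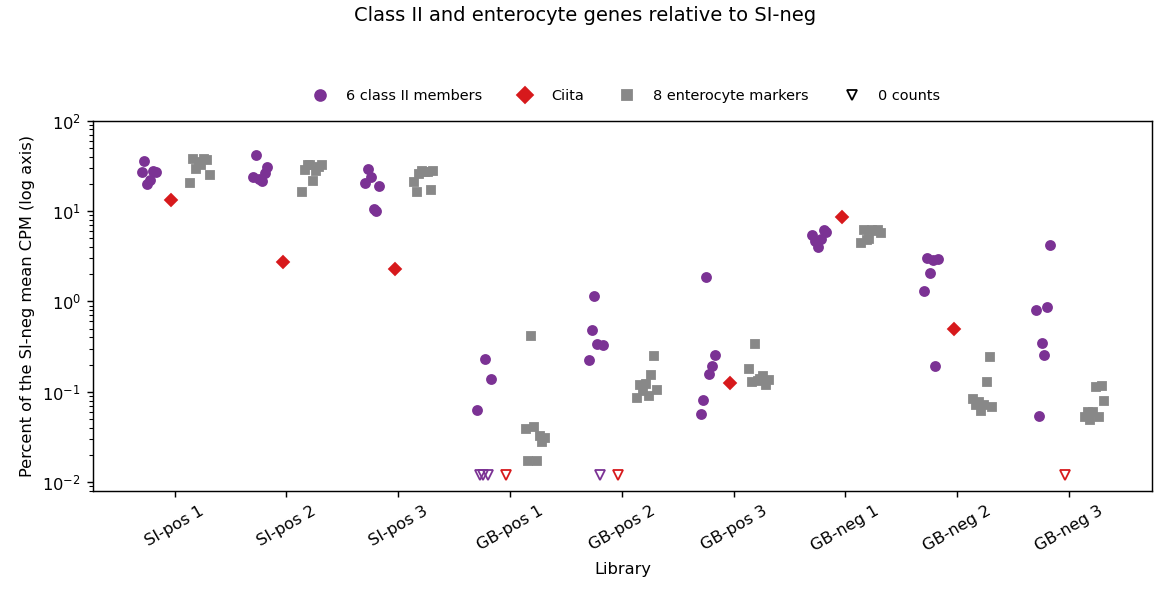
Level of each gene as a percent of its mean CPM over the 3 SI-neg libraries, on a log axis, in the 9 other libraries: 6 class II genes (circles), Ciita (diamonds) and 8 enterocyte markers (squares), with open triangles for 0 counts. In SI-pos the circles lie near the squares and Ciita lies below; in GB-neg 1 circles and squares both lie between 3.98 and 6.21%, and in GB-neg 2 most circles lie far above the squares.

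In the gallbladder the class II genes were read rarely, and least in IL-25+ cells. The gate difference was called lower for 6 of the 7 genes, all but H2-Eb1, against 14.4% of all tested genes called lower and 26.8% called in either direction. The median log2 fold change was -4.30 over the 7 genes and -0.150 over all tested genes. Only H2-Aa and H2-DMb1, 2 of 7, had groups that did not overlap, where 18.5% of tested genes were lower without overlap.

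H2-Aa was read 1, 3 and 1 times in GB-pos and 200, 23 and 16 times in GB-neg. Levels of 0.0647 ± 0.0536 CPM in GB-pos and 1.43 ± 1.44 CPM in GB-neg gave a log2 fold change of -4.63 ± 0.75 (adjusted p = 0.000574, edgeR). H2-DMb1 was read 1, 2 and 2 times in GB-pos and 96, 23 and 37 times in GB-neg, and its log2 fold change was -4.30 ± 0.57 (adjusted p = 0.000114, edgeR). Both had reads in every gallbladder library. H2-Ab1 was read 0, 18 and 4 times in GB-pos and 482, 148 and 3 times in GB-neg, so GB-neg 3 fell inside the IL-25+ range, and its log2 fold change was -3.97 ± 1.24 (adjusted p = 0.0382, edgeR). H2-Eb1 was read 0, 9 and 19 times in GB-pos and 85, 21 and 4 times in GB-neg, at 0.331 ± 0.310 and 0.701 ± 0.600 CPM. The gates overlapped, and -1.22 ± 0.87 did not pass the test (adjusted p = 0.328, edgeR).

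Cd74 had reads in every gallbladder library, 64, 79 and 48 in GB-pos and 3095, 870 and 87 in GB-neg. Levels of 2.38 ± 0.898 and 26.1 ± 22.7 CPM gave a log2 fold change of -3.57 ± 0.81 (adjusted p = 0.00887, edgeR), with GB-neg 3 at 2.49 CPM inside the IL-25+ range of 1.55 to 3.33 CPM. Ciita was read 0, 0 and 1 times in GB-pos and 145, 4 and 0 times in GB-neg, and H2-DMa 0, 0 and 1 times in GB-pos and 67, 1 and 5 times in GB-neg. Over the groups, GB-neg exceeded GB-pos 94.7-fold for Ciita (95% counting interval 16.7 to 3764, adjusted p = 0.0288 by edgeR) and 46.4-fold for H2-DMa (8.07 to 1857, adjusted p = 0.0141 by edgeR). The intervals cover counting error only. For a library at 0, the limit is that of 3 counts, or 0.1266 CPM in GB-pos 2, the shallowest.

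One library held most of these reads. GB-neg 1 had 145 of the 149 GB-neg reads of Ciita and 67 of the 73 of H2-DMa. The 7 genes there had 3.98 to 8.59% of their SI-neg mean (median 5.49%), beside 4.40 to 6.21% for the 8 enterocyte markers. Without GB-neg 1, 3 of the 7 genes were called: H2-Aa (log2 fold change -3.46), H2-DMb1 (-4.12) and Cd74 (-2.84). Without it H2-Ab1 was at -3.24 (adjusted p = 0.0858), H2-DMa at -2.84 (adjusted p = 0.107) and Ciita at -2.23 (adjusted p = 0.337), by the same edgeR test, where the adjusted p ran over all alternatives from 0.00156 to 0.161, from 0.00292 to 0.261 and from 0.00182 to 0.361. The call of H2-Ab1 was also lost without GB-pos 1, GB-pos 3 or GB-neg 2, that of H2-DMa without GB-pos 1, and that of Ciita without any 1 of the GB-pos libraries. Those of H2-Aa and H2-DMb1 held in 15 of 15 alternatives.

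GB-neg 2 differed from GB-neg 1 in this respect. Its enterocyte markers had 0.0611 to 0.243% of the SI-neg mean, while H2-Ab1 had 3.01%, H2-DMb1 2.91%, Cd74 2.87%, H2-Eb1 2.05% and H2-Aa 1.32%. H2-DMa at 0.193% and Ciita at 0.495% were lower in that library. In GB-neg 3 the enterocyte markers had 0.0495 to 0.117%, H2-DMb1 had 4.16%, and the other 6 genes ranged from 0 for Ciita to 0.858% for H2-DMa. The 3 GB-neg libraries thus held different sets of class II reads. Myeloid markers, which carry class II in other tissues, summed to 50.6 to 261 CPM in GB-neg and to 15.5 to 31.8 CPM in GB-pos. Itgam reached 7142 reads in GB-neg 2, at 230 of the 261 CPM of the list there, and Csf1r 1175 in GB-neg 1. Csf1r was lower in GB-pos than in GB-neg (-8.50 ± 1.76, adjusted p = 0.00304, edgeR), the 1 called of the 10 tested myeloid markers. The list was split. Of the 10, 4 had an unadjusted p below 0.05 (edgeR), 3 of them lower in GB-pos. Adgre1 was higher, with 183, 1 and 34 reads in GB-pos and 0, 9 and 0 in GB-neg (4.56 ± 1.93, adjusted p = 0.0974, edgeR). Lyz2 was also higher, at 0.740, 0.548 and 1.20 CPM in GB-pos against 0.263, 0.0645 and 0 CPM in GB-neg. The part of these markers in the class II reads was not tested.

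The gallbladder held less class II message than the small intestine in both gates. Among IL-25+ cells, 7 of 7 genes were lower in the gallbladder than in the small intestine, against 13.1% of all tested genes, with a median log2 fold change of -7.10 (all tested genes -0.0866). Among IL-25- cells, 7 of 7 were lower, against 11.7%, with a median of -5.43 (all tested genes -0.0263). The groups did not overlap for 7 of 7 genes in either comparison, where 15.8% and 18.2% of tested genes were lower without overlap. The tissue comparisons use the same libraries as the gate comparisons, so the values are not independent of each other.

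Among IL-25+ cells the GB-pos levels of the I-A chains rest on 5 reads of H2-Aa and 22 of H2-Ab1, 18 of the latter in GB-pos 2. H2-Aa had 13.4 CPM in SI-pos and 0.0647 CPM in GB-pos, a log2 fold change of -8.12 ± 0.79 (adjusted p = 1.65e-05, edgeR), and H2-Ab1 had 56.3 and 0.296 CPM (-8.07 ± 1.39, adjusted p = 0.00228, and -10.08 without GB-pos 2). H2-Eb1 fell least, from 7.33 to 0.331 CPM (-4.89 ± 0.95, adjusted p = 0.00250), and the 19 reads in GB-pos 3 were its highest count among GB-pos libraries. Cd74 went from 176 to 2.38 CPM (-6.65 ± 0.93, adjusted p = 0.000676) and H2-DMb1 from 6.52 to 0.0614 CPM (-7.10 ± 0.61, adjusted p = 6.21e-06). Over 1 read in GB-pos, the ratio was 299 for H2-DMa (counting interval 53.3 to 11862, adjusted p = 0.000739) and 133 for Ciita (23.5 to 5297, adjusted p = 0.0124). Ciita lost its call without any 1 of the GB-pos libraries (adjusted p = 0.0508 to 0.0543, in a range of 0.000118 to 0.104 for all alternatives).

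Among IL-25- cells the log2 fold changes were -5.43 ± 0.63 for H2-Aa, -5.44 ± 1.17 for H2-Ab1, -5.72 ± 0.97 for H2-Eb1, -5.39 ± 0.86 for Cd74 and -5.15 ± 1.35 for Ciita. H2-DMa had -5.47 ± 1.05 and H2-DMb1 -4.63 ± 0.50. Adjusted p ranged from 3.34e-05 for H2-DMb1 to 0.0149 for Ciita (edgeR). These estimates average over unlike GB-neg libraries, since the 7 genes had 3.98 to 8.59% of their SI-neg mean in GB-neg 1, 0.193 to 3.01% in GB-neg 2 and 0 to 4.16% in GB-neg 3. The 8 enterocyte markers were lower in the gallbladder in both gates as well, 8 of 8 called, with median log2 fold changes of -8.62 among IL-25+ and -5.84 among IL-25- cells. Both lists thus fell between the tissues, and the part of the enterocytes in the class II difference was not tested.

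**Figure D4:**
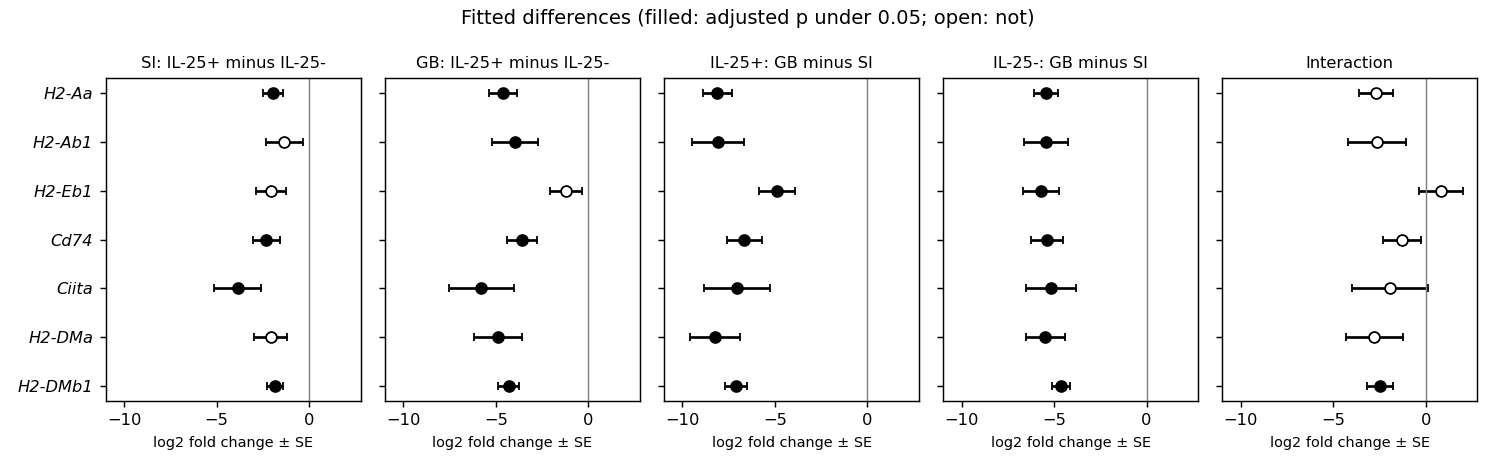
Log2 fold changes (points) and their SE (bars) of the 7 genes in the 4 comparisons between groups and the interaction, on 1 scale; filled points were called at an adjusted p below 0.05 and open points were not. All points of the tissue comparisons are filled, and 1 point of the interaction, that of H2-DMb1 at -2.47, is filled.

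Whether the gate difference itself differs between tissues was tested by the interaction, the gallbladder gate difference minus that of the small intestine. Of the 7 genes, H2-DMb1 alone was called, against 5.60% of all tested genes called lower and 9.23% called in either direction. Its interaction was -2.47 ± 0.70 (adjusted p = 0.0425, edgeR, and between 0.0314 and 0.312 in the alternatives), and it was called in 4 of 20 alternatives, those without GB-pos 2 and without GB-neg 2 being the only fits without 1 library that kept it. The values were -2.69 for H2-Aa (adjusted p = 0.0898), -2.63 for H2-Ab1 (0.354), -2.79 for H2-DMa (0.306), -1.27 for Cd74 (0.533) and -1.91 for Ciita (0.649). H2-Eb1 had 0.83 (adjusted p = 0.750). For 5 of these 6 genes the gate estimate was larger in the gallbladder than in the small intestine, and for H2-Eb1 it was smaller. Of the 6, H2-Aa was called in 1 of 20 alternatives, without GB-neg 3 (-3.07, adjusted p = 0.0433, in a range of 0.0433 to 0.337).

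The other class II genes of the mouse locus were close to absent. H2-Oa, of the H2-O chaperone that opposes H2-DM, and H2-Ea, the I-E alpha chain listed in the annotation as H2-Ea-ps, had 0 reads in all 12 libraries. H2-Ob had 5 reads in SI-pos 3, H2-Eb2 had 1 there, and H2-DMb2, the close copy of H2-DMb1, had 3 in SI-pos 2 and 2 in SI-neg 1. None of these 5 genes passed the filter. H2-Eb1 was thus read without its usual partner chain.

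The factors that bind class II promoters were called less between the tissues than the members were. Of 7 (Rfx5, Rfxap, Rfxank, Nfya, Nfyb, Nfyc and Creb1), 0 were called by edgeR in either tissue comparison, where 23.7% of tested genes were called among IL-25+ and 24.6% among IL-25- cells. In each of the tissue comparisons 1 of the 7 had an unadjusted p below 0.05, and DESeq2 and limma-voom called 1 each. Between the gates, Nfya, the subunit of NF-Y that contacts the CCAAT box, was higher in IL-25+ cells of both tissues. It was read 3420, 3790 and 5018 times in SI-pos and 2205, 725 and 2148 times in SI-neg, a log2 fold change of 1.75 ± 0.34 (adjusted p = 0.00185, edgeR), and in the gallbladder the change was 1.47 ± 0.33 (adjusted p = 0.00546). Nfyb, its partner, was lower in GB-pos than in GB-neg (-1.92 ± 0.41, adjusted p = 0.00367) and had -0.59 in the small intestine (adjusted p = 0.298). Rfx5, the RFX subunit, had 19.7 CPM in SI-pos, 18.0 in SI-neg, 51.9 in GB-pos and 21.9 in GB-neg, so the group with least Ciita had the highest mean of Rfx5, though neither GB-pos difference passed (adjusted p = 0.0581 and 0.0826, edgeR).

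Of the 8 genes of the interferon gamma route to Ciita, 2 were lower and 1 was higher in SI-pos than in SI-neg, where 12.8% and 14.5% of all tested genes were, and 2 were lower in GB-pos than in GB-neg, where 14.4% were. These counts of 1 or 2 genes are near the shares over all genes. Ifngr1, the ligand-binding receptor chain, was lower in IL-25+ cells of both tissues. It was read 775, 425 and 357 times in SI-pos and 2863, 2582 and 3630 times in SI-neg (-2.11 ± 0.35, adjusted p = 0.000592, edgeR), and 325, 456 and 798 times in GB-pos and 6453, 2942 and 1713 times in GB-neg (-2.28 ± 0.35, adjusted p = 0.000338). Between tissues Ifngr1 did not pass in either gate (-0.34 and -0.18, adjusted p = 0.495 and 0.754). Ifngr2, the signalling chain, was lower in SI-pos than in SI-neg (-1.24 ± 0.24, adjusted p = 0.00189). Irf2, a partner of Irf1 at the inducible Ciita promoter, was higher in SI-pos (0.94 ± 0.22, adjusted p = 0.00683).

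Between tissues, 4 of the 8 were lower in the gallbladder among IL-25+ cells and 2 of 8 among IL-25- cells, beside 13.1% and 11.7% of all tested genes. Jak2, the kinase of the receptor, was lower in both gates (-1.47 ± 0.24, adjusted p = 0.000689, and -0.85 ± 0.23, adjusted p = 0.0178, edgeR), the latter call being lost without SI-neg 2, GB-neg 1 or GB-neg 2 (adjusted p = 0.0684 to 0.0934). Irf1, the interferon-induced factor, was lower among IL-25+ cells (-1.41 ± 0.26, adjusted p = 0.00190). Socs1, the feedback inhibitor of JAK signalling, was read 0 times in each GB-pos library, 94, 161 and 82 times in SI-pos, 10, 31 and 67 times in SI-neg, and 48, 15 and 10 times in GB-neg. Against a floor of 3 counts over the group, Socs1 was at least 106-fold lower in GB-pos than in SI-pos (adjusted p = 0.000824, edgeR) and at least 15.5-fold lower than in GB-neg (adjusted p = 0.00447). In the small intestine Socs1 was not called between the gates, at 2.13 ± 1.00 (adjusted p = 0.139).

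The endosomal enzymes that cut antigen and invariant chain split in direction. Of 8, SI-pos was lower in 3 and higher in 1 than SI-neg, beside 12.8% and 14.5% of all tested genes. GB-pos was lower in 5 than GB-neg, beside 14.4%, and the 5 include Ctsh, cathepsin H, at an adjusted p of 0.0493 (edgeR) that passed in 5 of 15 alternatives. The gallbladder was lower in 2 in each gate, beside 13.1% and 11.7%, and higher in 1 among IL-25+ and in 3 among IL-25- cells, beside 10.5% and 13.0%. Ctss, cathepsin S, which makes the last cuts in the invariant chain in antigen-presenting cells, followed the members' order. It was read 526, 292 and 111 times in SI-pos, 1495, 938 and 1763 times in SI-neg, 0, 7 and 1 times in GB-pos and 190, 9 and 0 times in GB-neg. The gallbladder was lower in both gates (-7.06 ± 1.58, adjusted p = 0.00770, and -5.30 ± 1.35, adjusted p = 0.0151, edgeR), the IL-25- call being lost without GB-neg 2 (adjusted p = 0.0526, in a range of 0.000345 to 0.0730 for all alternatives). The gate difference was -1.74 ± 1.16 in the small intestine (adjusted p = 0.297) and -3.50 ± 1.46 in the gallbladder (adjusted p = 0.0994).

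Ctsl, cathepsin L, which does the same work in thymic epithelium, ran the other way between tissues. It was read 453, 419 and 324 times in SI-pos, 954, 1693 and 1382 times in SI-neg, 1094, 1235 and 2622 times in GB-pos and 13314, 7993 and 8129 times in GB-neg. It was higher in the gallbladder in both gates (1.66 ± 0.32, adjusted p = 0.00217, and 2.52 ± 0.32, adjusted p = 0.000137, edgeR) and lower in IL-25+ cells of both tissues (-1.35 ± 0.31, adjusted p = 0.00651, and -2.21 ± 0.32, adjusted p = 0.000232). Ctsz, a carboxypeptidase, was lower in all 4 comparisons, with log2 fold changes of -2.17 and -2.16 for the gates of small intestine and gallbladder and -1.90 and -1.91 for the tissues in IL-25+ and IL-25- cells (adjusted p from 0.00251 to 0.00655). Ctsb and Ctsd, general lysosomal proteases, were higher in GB-neg than in SI-neg (1.45 ± 0.17 and 1.08 ± 0.16) and did not pass among IL-25+ cells (0.16 and -0.34).

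March1, the ubiquitin ligase that removes class II molecules from the surface, was read almost only in IL-25+ gallbladder cells. It had 1182, 1652 and 1734 reads in GB-pos, 14, 13 and 0 in GB-neg, 2, 0 and 7 in SI-pos and 4, 16 and 0 in SI-neg. GB-pos stood at 55.8 CPM and the other 3 groups at 0.104 to 0.212 CPM. The log2 fold changes were 7.89 ± 1.32 against GB-neg (adjusted p = 0.000849, edgeR) and 8.60 ± 1.40 against SI-pos (adjusted p = 0.000881), a comparison in which 10.5% of tested genes were called higher. The interaction was 8.69 ± 1.76 (adjusted p = 0.00853, and between 0.00107 and 0.0706 in the alternatives), where 3.63% of tested genes were called higher, and its call was lost without SI-neg 2 (6.86, adjusted p = 0.0706). The ligase was thus read most in the group where the 7 class II genes were read least. March8, a related ligase, had 73.3 to 130 CPM in the 4 groups, and Sppl2a, the protease that clears the invariant chain stub, was lower in GB-pos than in GB-neg (-1.54 ± 0.27, adjusted p = 0.000994).

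**Figure D5:**
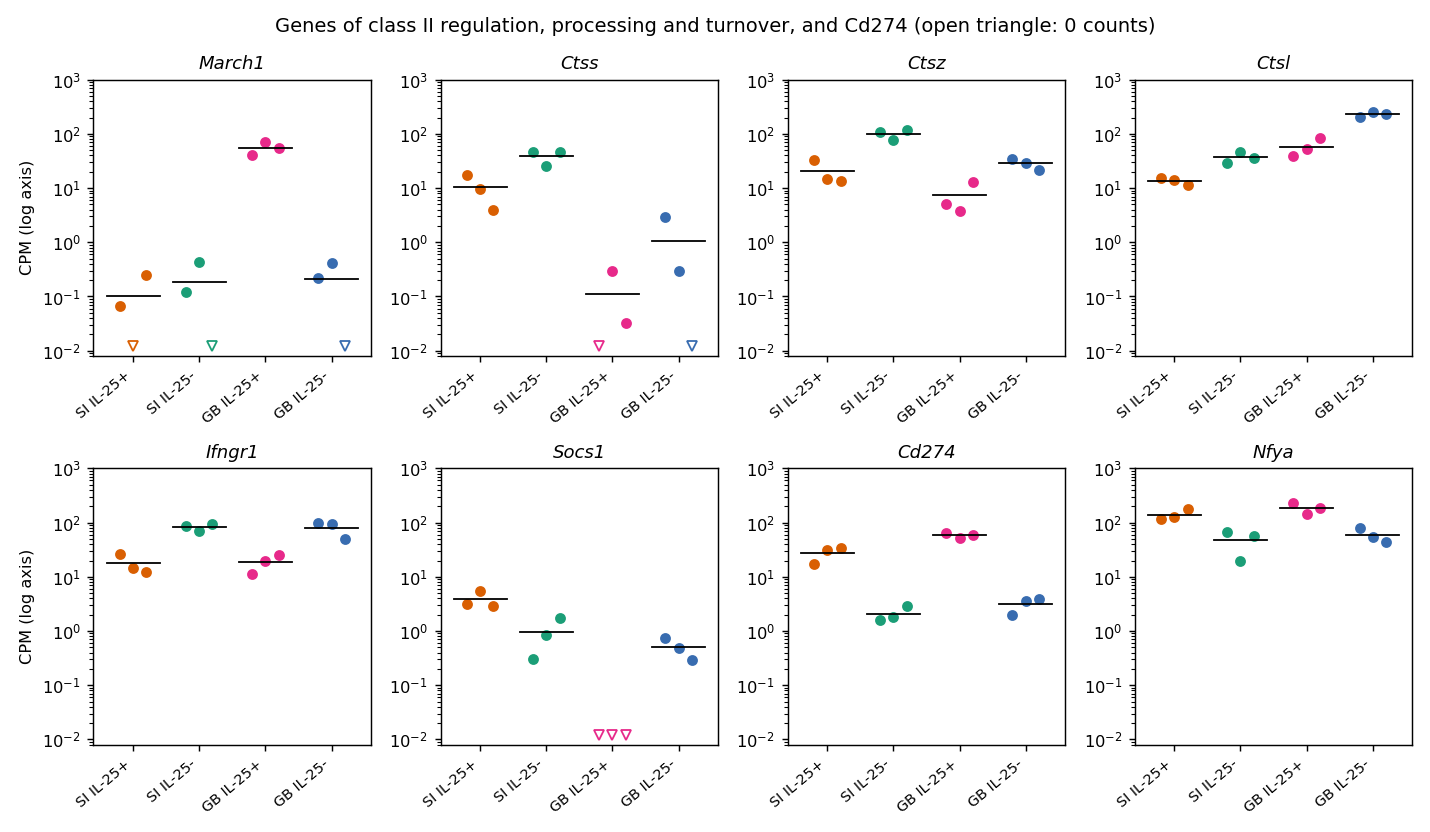
CPM on a log axis of 8 genes around the class II pathway in the 12 libraries, replicates 1 to 3 from left to right in each group; black lines are group means of 3 libraries and open triangles mark 0 counts. March1 is high in GB-pos alone, Socs1 has 0 counts in GB-pos alone, and Ifngr1 is lower and Cd274 and Nfya are higher in IL-25+ cells of both tissues.

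Of 9 costimulatory and checkpoint genes, 4 passed the filter. Cd274, encoding PD-L1, an inhibitory ligand for T cells, was higher in IL-25+ cells of both tissues. It was read 506, 929 and 953 times in SI-pos and 53, 66 and 108 times in SI-neg (3.86 ± 0.42, adjusted p = 2.49e-05, edgeR), and 1788, 1249 and 1856 times in GB-pos and 129, 113 and 137 times in GB-neg (3.95 ± 0.42, adjusted p = 1.96e-05). Mean Cd274 levels were 27.2 CPM in SI-pos, 2.09 in SI-neg, 58.6 in GB-pos and 3.19 in GB-neg, so within each tissue Cd274 was higher and the class II means were lower in IL-25+ cells, while GB-neg was low in both. Cd86, a classical costimulator, had 86 reads in GB-pos 3, 2 in SI-pos 2 and 0 elsewhere. Lgals9 was lower in GB-neg than in SI-neg (-1.38 ± 0.24, adjusted p = 0.000989). Mif, a ligand of CD74, was higher in SI-pos than in SI-neg, with 104, 210 and 143 against 44, 29 and 55 reads (2.30 ± 0.71, adjusted p = 0.0279, lost without any 1 of the small intestine libraries but SI-pos 1, at 0.0758 to 0.126), and Ddt, the other ligand, had 1.23 (adjusted p = 0.217).

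Markers of other cells that carry class II were checked in the same libraries. In the small intestine 17 myeloid markers summed to 24.6 to 32.5 CPM in SI-pos and 21.1 to 45.0 CPM in SI-neg. Among these markers of dendritic cells and macrophages, Cd209a had 0 reads in all 12 libraries, Flt3 at most 1, C1qa at most 5 and Xcr1 at most 10. Others were read in sorted cells of either tissue, with at most 238 reads of Zbtb46, 120 of Mrc1, 183 of Adgre1 and 2004 of Cd68 in a library. Of the 10 tested in the small intestine 1 was called between the gates: Adgre1, which encodes the macrophage antigen F4/80, had 135, 118 and 69 reads in SI-pos and 0, 3 and 0 in SI-neg (6.91 ± 2.18, adjusted p = 0.0317, edgeR, called in 7 of 14 alternatives). Adgre1 thus ran opposite to the class II genes there, but the list was split. Cd68 ran with them, at 1.94 CPM in SI-pos and 4.56 CPM in SI-neg without overlap, though it did not pass (adjusted p = 0.276, edgeR). Itgam had 12.8 CPM in SI-pos and 22.7 CPM in SI-neg, and Lyz2 had 3.40 and 1.20 CPM. The part of the myeloid markers in the small intestine difference was not tested. Of B cell genes, Ms4a1 had at most 4 reads and Pax5 at most 6. The 7 B and plasma cell markers used summed to 1.19 to 5.92 CPM in the small intestine and to 31.8 to 42.9 CPM in GB-pos. That sum was 29.2 to 35.2 CPM of Cd79b, plus 13.7 CPM of Ighm in GB-pos 2, while Ms4a1, Cd79a, Pax5 and Jchain had 0 reads in every GB-pos library. Cd79b was higher in GB-pos than in GB-neg (4.51 ± 0.68, adjusted p = 0.000314, edgeR). T cell and innate lymphoid markers summed to 11.1 to 53.7 CPM in SI-pos and 11.7 to 59.3 CPM in SI-neg, and 5 of 8 tested were lower in the gallbladder in each gate, moving with the class II genes. Their part in the tissue difference was not tested.

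Outside the pathway, the genes whose pattern was most like that of H2-Aa, H2-Ab1, H2-Eb1 and Cd74 were found by Pearson correlation of log2 CPM with the mean centred profile of those 4 genes over the 12 libraries, among 8680 genes of at least 10 CPM on average. They were Brpf3 (r = 0.996), Slc15a1 (0.993), Ace (0.992), Ces2e (0.989) and Slc5a1 (0.988). Slc15a1, the peptide transporter of the brush border, had means of 44.2 CPM in SI-pos, 184 in SI-neg, 0.302 in GB-pos and 3.64 in GB-neg. Slc5a1, the sodium-glucose transporter, had 662, 2636, 3.40 and 52.1 CPM in the same order, and Ace, a brush border peptidase, 196, 754, 1.32 and 15.7 CPM. Brpf3, a subunit of a histone acetyltransferase complex, followed the same order over a narrow range, from 35.0 CPM in GB-pos to 100 CPM in SI-neg. The 12 points fall into the 4 groups and share libraries and depth with the profile, so r describes the pattern and carries no test.

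Some counts share sequence with neighbours. The library kit marks no strand, so reads of overlapping genes on opposite strands cannot be told apart. H2-DMa overlaps Brd2 over 3094 bases, and Brd2 had 10011 to 18336 reads in the GB-pos libraries where H2-DMa had 0 or 1. Ciita overlaps Dexi, which had at most 429 reads, over 25888 bases, and H2-Eb1 overlaps the antisense gene Gm20513, which had at most 98. The levels of these 3 members are uncertain by whatever the authors' counter did with shared reads.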

How the data were processed

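The values are raw counts of reads for each Ensembl gene, as deposited, which the authors made with STAR 2.7.2b on GRCm38, and DESeq2 1.26 is also listed, per the submitters' processing notes. The read counter, its strand setting and the annotation release are not given in the sources used here. Per the labels' protocols, EDTA and DTT released the epithelium, EpCAM+ cells were sorted, Nextera XT libraries were made and 50 bp single-end reads were run. Of 43432 genes, 42548 matched GENCODE M21, and the other 884 held at most 0.119% of the counts of a library. A further 11 columns match no listed sample and were not used.

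Counts were tested with edgeR 4.0.16 in R 4.3.3 (filterByExpr with minimum count 10, TMM, robust quasi-likelihood fit over all 12 libraries with group as the only factor), with Benjamini-Hochberg adjustment over 16636 genes per comparison and a threshold of 0.05. The SE is the log2 fold change divided by the square root of F. Replicates were distinct (chi-square over its degrees of freedom at least 45.32). The procedure was run on simulated counts for the small intestine gate comparison alone. Those counts did not imitate the low GB-pos levels or the unlike GB-neg libraries, so the run is no check of the gallbladder results. A zero is limited by 3 counts, and ratios against 1 to 3 counts carry exact 95% intervals. Levels between genes are per kilobase of the longest protein-coding mRNA tagged as APPRIS principal, or of all exons, in M21, scaled to 1 total. Genes without such an mRNA are left out of the former.

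The members and lists were chosen with earlier results of these data known. The text names all members, from each other list up to 3 genes with the lowest adjusted p plus those called against the list's majority, and the 5 most similar genes. Rfx5, Irf1, Ifngr2, Ddt, Cd86, Csf1r, Itgam, Adgre1, Zbtb46, Mrc1, Cd68, Lyz2, Ighm, Ctsh and Cd79b were named after their values were seen, as were the enterocyte comparison and the within-library ratios. One B cell marker is not reported here. Alternatives were RLE factors, DESeq2 1.42.0, limma-voom (limma 3.58.1), other filters, replicate blocks, fits on the compared groups only, and fits without 1 or more libraries. Tables used pandas 2.3.3 with scipy 1.17.1 and numpy 2.4.6, and figures matplotlib 3.10.9, in Python 3.11.15.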

Additional observations from a re-analysis of the deposited data

Results flagged for a closer look

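The gate difference differed between the tissues, by a test of the interaction, for 1 of 7 class II genes and 5 genes around the pathway. Of all tested genes 9.23% were called, 5.60% lower and 3.63% higher. The 5 were 2 of 8 endosomal enzymes, 2 of 8 genes of the interferon gamma route and March1, 1 of 3 turnover genes. Of the promoter factors 0 of 7 were called, of the CD74 ligands 0 of 2 and of the costimulatory and checkpoint genes 0 of 4. Whether these counts exceed the share was not tested. H2-DMb1 had an interaction of -2.47, called in 4 of 20 alternatives, the IL-25+ cells being lower by more in the gallbladder. Ctsb had -1.30 and Ctsd -1.41, with Ctsd higher in IL-25+ cells of the small intestine (0.89 ± 0.16, adjusted p = 0.00133, edgeR) and lower in those of the gallbladder (-0.52 ± 0.16, adjusted p = 0.0288, which passed the threshold without GB-neg 1 or GB-neg 3 and was 0.0509 to 0.0878 without any other gallbladder library). March1 had 8.69, being high in IL-25+ gallbladder cells. Irf2 had -1.20, called in the fits without SI-neg 1, GB-pos 3 or GB-neg 1 and at an adjusted p of 0.0510 to 0.0824 without any other library. Socs1 had a fitted value of -9.20, which depends on the prior count because its GB-pos libraries were at 0 counts.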

How the results depend on the processing

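In the small intestine the count of 4 called members became 7 under limma-voom, 7 in the fit of the compared groups alone, 2 with no filter on low counts, and 1 to 3 without 1 replicate. In the gallbladder the 6 called members became 2 under limma-voom, 3 in the compared groups alone (where Ciita and H2-DMa failed the filter), 3 without SI-neg 3 and GB-neg 1, and 3 to 6 without 1 replicate. The tissue counts of 7 stayed at 7 except for 5 (IL-25+) and 6 (IL-25-) with the replicate block nested in tissue and 6 among IL-25+ cells without any 1 GB-pos library. The interaction count of 1 became 0 under RLE size factors, limma-voom, no filter, both replicate blocks, and when SI-neg 3 and GB-neg 1 were dropped, and 0 to 1 without 1 replicate. The sign of the interaction reversed for H2-Eb1 under limma-voom (-0.29) and without GB-pos replicate 3 (-0.00432, in a range up to 1.62 without 1 replicate), and for Ciita under limma-voom (0.85), without GB-neg replicate 1 (1.64, in a range from -3.82 without 1 replicate) and without both SI-neg 3 and GB-neg 1 (1.68). The cause was not tested. The deviations of same-numbered libraries from their group means correlated at 0.0256, -0.00211 and -0.0281 between the small intestine gates. Between the gallbladder gates they correlated at 0.0939, 0.0188 and 0.162. With 3 libraries per group these low values cannot decide whether the numbers pair the samples, and the labels do not say. With the replicate block 4, 5, 7 and 7 members were called in the 4 comparisons between groups. Over all genes the nested block gave 1373 and 1526 calls between tissues, against 3938 and 4099. As coded, that fit compares the tissues at the fitted level of replicate 1 alone. Its tissue counts, those of the members included, are thus not a check of the same difference. The same fit gave the highest adjusted p between tissues for Ciita among IL-25+ cells (0.104) and Ctss among IL-25- cells (0.0730, edgeR). Under RLE factors the all-gene median went from -0.0725 to -0.197 in the small intestine, from -0.0866 to 0.0206 between tissues in IL-25+ cells and from -0.107 to 0.0579 in the interaction. Depth limits the GB-pos values, where 3 counts are 0.03613 CPM over the group.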
